A study of Mus musculus with 12 samples.

Results

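The early growth response (Egr) genes encode zinc finger transcription factors, and the Nab genes encode corepressors that bind them. The genes described here were Egr1, Egr2, Egr3, Egr4, Nab1 and Nab2, and they were found by matching the accession of every non-control probe to RefSeq gene names. The match gave 8 of the 56605 probes on the array, for 5 of the 6 genes: 1 probe each for Egr1, Egr2 and Egr4, 3 for Egr3 and 2 for Nab2. No probe matched Nab1, which is therefore not analysed here. Of the 8 probes, 7 passed the filter on dim probes, so that 5 of the 26836 genes tested were members of the family.

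The study profiled embryonic stem cells of the mouse, cultured pluripotent cells, on 12 one-colour arrays. Its title names transcription that depends on the proteasome and on the kinase ERK. All 4 groups of 3 arrays were kept with leukaemia inhibitory factor (LIF) and with 250 nM PD173074, which blocks the receptors of fibroblast growth factors. The first group was untreated and is titled 0 h. The second received 250 nM 4OHT, the active form of tamoxifen, for 6 h. The third received 1 µM of the proteasome inhibitor MG132 for 30 min and then for a further 6 h. The fourth had MG132 for 30 min and then MG132 and 4OHT together for 6 h. 4OHT commonly serves to activate fusion proteins that carry an altered oestrogen receptor domain, but the labels used here name neither such a protein nor a vehicle. No untreated array at 6 h was analysed here, so time and compound cannot be told apart wherever the untreated group was the control. This holds also for the difference of the 4OHT responses with and without MG132, in which the untreated group is 1 of the controls. The series describes its replicates as biological.

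Egr1, Egr2 and Egr3 are immediate-early genes. Growth factor signalling through Raf, MEK and ERK phosphorylates ternary complex factors such as ELK1, which sit with serum response factor (SRF) at CArG boxes in their promoters and start transcription within minutes. The Egr proteins bind GC-rich sites and switch on further genes, among them Nab2, and the NAB proteins then join the Egr proteins and repress the same targets, a negative feedback loop. EGR4, the most divergent family member, is best known from neurons and the germ line and lacks the domain that NAB proteins bind.

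All 10 embryonic stem cell markers examined were well above background on every array. Their summed level, as a ratio to the array's 75th percentile, ranged from 936 to 986 on the untreated arrays and from 886 to 925 on those with 4OHT. It ranged from 551 to 567 with MG132 alone and from 510 to 590 with both compounds, and all 10 fell with MG132. The sum leans on Dppa5a, the brightest, with a mean log2 level of 9.03 in untreated cells and 9.05 with 4OHT. Of the 10, 3 were called lower and 1 higher with 4OHT. The mean log2 level of Nanog was 3.96 in untreated cells and 1.54 with 4OHT. In RNA from whole cultures, fewer cells of a type and less RNA per cell cannot be told apart. Of 10 fibroblast or feeder markers, Col3a1, Postn, Lox and Lum were not well above background on any untreated array. The summed level of this list ranged from 24.3 to 26.2 on untreated arrays, from 43.6 to 55.6 with 4OHT, from 20.3 to 23.3 with MG132, and from 25.6 to 29.5 with both. Of its 6 tested members, Thy1 and Twist1 were called higher with 4OHT and 1 was called lower. The mean log2 level of Thy1 was 0.63 in untreated cells and 4.34 with 4OHT, and that of Pdgfrb was -2.91 and -4.48. Neural markers summed to 7.16 to 11.2 over all arrays. Primitive endoderm markers summed to 12.9 to 17.8 on untreated arrays and 19.3 to 24.0 with 4OHT. They summed to 14.4 to 19.4 with MG132 and 22.3 to 28.8 with both. The part of any of these markers in the values of the Egr and Nab genes was not tested. Between 49.4% and 63.2% of probes were well above background per array. All untreated and 4OHT arrays and MG132 replicates 1 and 2 lay on slide 1, and MG132 replicate 3 and all arrays with both compounds on slide 2. Across the groups, the arrays numbered 3 deviated from those numbered 1 and 2 in 2721 genes by the same limma approach, and Egr2 was the member among them, lower by 0.64 ± 0.13 (SE, log2) with adjusted p = 0.0164.

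Promoter windows of RefSeq (assembly GRCm38.p6), from 250 bases before to 50 bases after a transcription start, were on hand for Egr2, Egr4, Nab1 and Nab2. They are shown for Egr2 and Egr4 because these members moved in opposite directions with 4OHT. Capitals mark exact matches to the motifs searched on both strands. CArG boxes were sought as CCWWWWWWGG, with W for A or T. The others were ETS sites (CCGGAA), the core of the cyclic AMP response element (TGACG) and Egr sites (GCGNGGGCG). A full response element (TGACGTCA), which holds that core on both strands, was also searched, and it occurs in 1.79% of windows and in none of the members'. The first Egr2 window lies on the plus strand at chr10:67537316-67537615, the second on the plus strand at chr10:67537619-67537918, and that of Egr4 on the minus strand at chr6:85513540-85513839.
Egr2 first window: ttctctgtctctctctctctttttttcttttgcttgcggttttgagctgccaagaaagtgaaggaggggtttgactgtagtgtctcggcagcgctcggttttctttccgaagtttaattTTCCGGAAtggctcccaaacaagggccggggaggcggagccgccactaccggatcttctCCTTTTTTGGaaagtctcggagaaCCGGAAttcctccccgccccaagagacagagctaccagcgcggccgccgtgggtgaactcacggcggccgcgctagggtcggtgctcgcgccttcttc
Egr2 second window: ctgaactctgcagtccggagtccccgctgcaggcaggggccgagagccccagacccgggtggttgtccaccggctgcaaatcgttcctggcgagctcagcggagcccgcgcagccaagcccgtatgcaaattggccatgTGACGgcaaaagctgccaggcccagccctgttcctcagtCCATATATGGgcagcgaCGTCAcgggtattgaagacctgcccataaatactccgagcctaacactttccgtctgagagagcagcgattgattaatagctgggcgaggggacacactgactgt
Egr4 window: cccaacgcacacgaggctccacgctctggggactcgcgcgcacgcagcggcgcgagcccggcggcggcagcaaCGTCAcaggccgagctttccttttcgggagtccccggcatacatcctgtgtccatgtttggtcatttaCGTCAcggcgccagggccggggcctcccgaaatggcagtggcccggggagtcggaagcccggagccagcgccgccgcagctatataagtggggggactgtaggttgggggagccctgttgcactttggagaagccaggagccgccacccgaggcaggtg
Each printed Egr2 window holds a CArG box at positions -72 to -63 from its start, CCTTTTTTGG in the first and CCATATATGG in the second. A CArG box occurs in 1.63% of the 32851 windows of 300 bases in the table, in which a gene can have several. The first Egr2 window also holds 3 ETS matches, of which a pair overlaps, and 14.9% of windows hold at least 1. The second holds the response element core at 2 places, and 20.8% of windows hold such a match. The Egr4 window holds 2 such cores, at positions -177 to -173 and -109 to -105, and no exact CArG box. It does hold ccatgtttgg, which departs from the CArG pattern by 1 letter. Near matches were not searched in any window. The remaining 3 of the 5 Egr2 windows comprise 2 that overlap the second one printed and share its matches, and 1 further upstream without a match. None of the motifs was found in the Nab2 window, and the window of the unmeasured Nab1 held 1 response element core and 3 Egr sites, against 5.55% of windows with at least 1. A match is a string of letters and was not tested for binding.

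With 4OHT alone, Egr1, Egr2, Egr3 and Nab2 rose and Egr4 fell. MG132 alone lowered Egr1 and Nab2. With MG132 present, 4OHT raised Egr1, Egr2, Egr3 and Nab2, and the rises of Egr1 and Egr2 were larger than without it. A gene was called when its adjusted p in limma (Benjamini-Hochberg over all genes) was below 0.05. Changes are differences of log2 levels between groups of 3 arrays, given ± standard error (SE), and each level is the log2 intensity relative to the array's 75th percentile. With 4OHT against untreated cells 5 of 5 members were called, where 28.6% of all genes were called. With MG132 against untreated cells 2 of 5 were called, against 43.1% of all genes. For 4OHT in the presence of MG132 it was 4 of 5, against 26.5%. For MG132 with 4OHT against 4OHT alone it was 5 of 5, against 50.2% (29.4% higher and 20.9% lower). For both compounds against untreated cells it was 4 of 5, against 55.6% (33.2% higher and 22.5% lower). The difference of the 4OHT responses with and without MG132, which time enters through the 0 h group, was called in 2 of 5, against 6.55%. These comparisons share arrays with each other and are not independent. The counts include Egr3, which entered the test only through the groups with 4OHT and lay below background in the others. Calls were thus common among all genes in the comparisons of MG132 with untreated cells or with 4OHT alone.

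**Figure D1:**
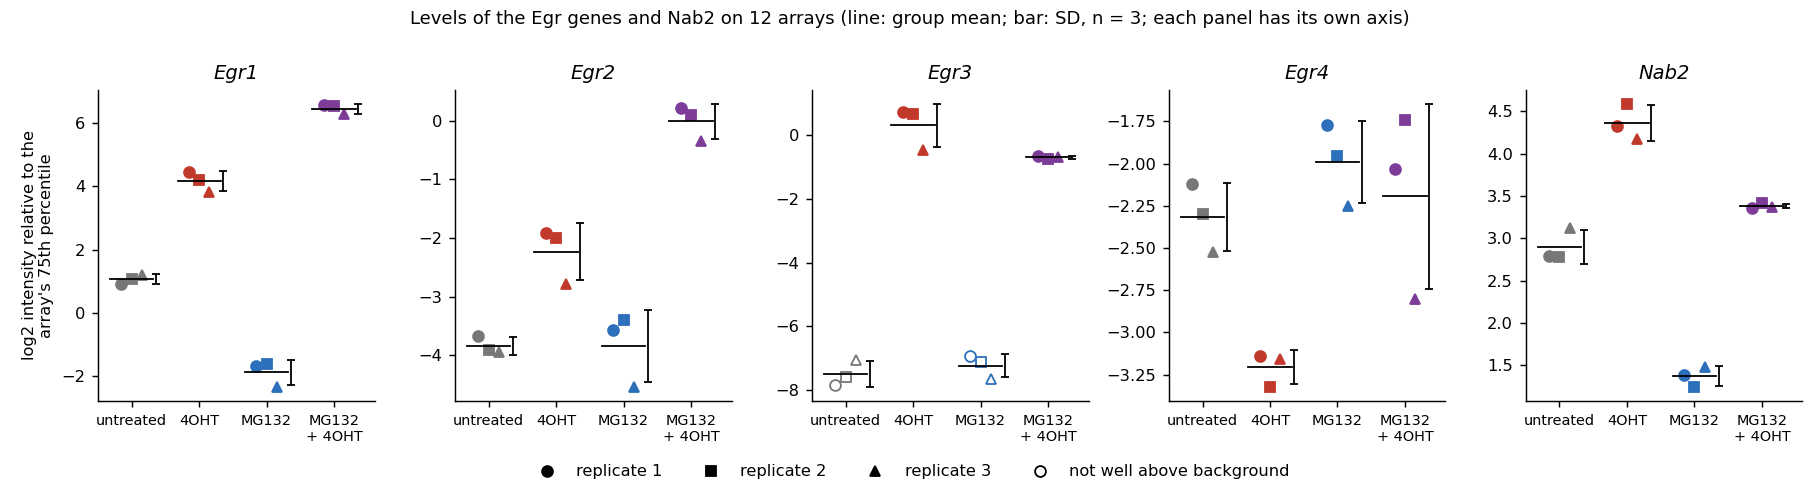
Log2 intensity relative to the array's 75th percentile (vertical axis, 1 scale per gene) of Egr1, Egr2, Egr3, Egr4 and Nab2 on the 12 arrays, by treatment; symbols are replicates, open symbols were not well above background, lines are group means and bars the SD of 3 arrays. Egr1 is lowest with MG132 alone and highest with both compounds, and Egr3 is measured only where 4OHT was given.

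Egr1, the founding member and a rapid reporter of ERK activity, was called in all 6 comparisons. In untreated cells its log2 level was 0.92, 1.08 and 1.21 on replicates 1, 2 and 3. With 4OHT it was 4.45, 4.21 and 3.82, with MG132 -1.68, -1.63 and -2.35, and with both compounds 6.56, 6.53 and 6.28. The groups did not overlap: all MG132 arrays lay below all untreated arrays, and all arrays with both compounds above all 4OHT arrays. As intensity the means were 997 ± 76.0 (SD, n = 3) in untreated cells, 7062 ± 1350 with 4OHT, 116 ± 27.2 with MG132 and 34926 ± 5555 with both. Over all genes, groups did not overlap in 40.9% for 4OHT against untreated cells, 59.5% for MG132 against untreated cells and 50.2% for 4OHT under MG132. The share was 57.5% for both compounds against 4OHT alone and 72% for both compounds against untreated cells.

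With 4OHT alone Egr1 rose 8.52-fold (3.09 ± 0.21, adjusted p = 4.64e-06), which ranked 271 of 26836 genes by absolute change. MG132 alone lowered it 7.77-fold (-2.96 ± 0.21, adjusted p = 5.16e-06). From that lower level, 4OHT in the presence of MG132 raised Egr1 325-fold (8.35 ± 0.21, adjusted p = 6.16e-08), the change that ranked 2 of all genes. The 2 responses to 4OHT differed by 5.25 ± 0.30 (38.2-fold, adjusted p = 3.8e-05, rank 5). That difference is made of the fall with MG132 alone and of a rise of 2.30 ± 0.21 (4.91-fold, adjusted p = 1.67e-05) of the group with both compounds over 4OHT alone. Against untreated cells the group with both compounds was 41.9-fold higher (5.39 ± 0.21, adjusted p = 1.09e-07). Slide and treatment overlap in part over the design, and fully where both compounds are set against 4OHT alone or untreated cells. The values were therefore also taken with slide as a block and within a slide. With slide as a fixed block the 4OHT response under MG132 was 8.81 and the difference of responses 5.71 ± 0.28 (adjusted p = 0.000212). Both rest on the 1 MG132 array of slide 2, as all fits with that block do for arrays with both compounds, and assume that it varies like the other arrays. The response within slide 2 is the same contrast and is no separate support. Without that array the response was 8.12 ± 0.18 (adjusted p = 1.89e-07). The fall with MG132 within slide 1, which holds 2 MG132 arrays, was -2.73 ± 0.19 (adjusted p = 0.000319).

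Egr2, also called Krox20 and known from hindbrain patterning and Schwann cell myelination, was a dim gene in untreated cells but well above background on every array. Its log2 level was -3.67, -3.91 and -3.95 in untreated cells and -1.91, -2.00 and -2.79 with 4OHT. With MG132 it was -3.58, -3.40 and -4.54, and with both compounds 0.22, 0.11 and -0.34. The MG132 arrays overlapped the untreated arrays on both sides, while the 4OHT arrays lay above both and the arrays with both compounds above those. Replicate 3 was the lowest array in each of the 4 groups, the deviation given above for the replicate 3 arrays.

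Egr2 rose 3.05-fold with 4OHT (1.61 ± 0.32, adjusted p = 0.00364). MG132 alone left it at 0.0038 ± 0.32 (adjusted p = 0.994). With MG132 present, 4OHT raised it 14.2-fold (3.83 ± 0.32, adjusted p = 4.57e-05, rank 40). The responses differed by 2.22 ± 0.45 (4.67-fold, adjusted p = 0.0163), and the group with both compounds exceeded 4OHT alone by 2.23 ± 0.32 (adjusted p = 0.000262). For Egr2, unlike Egr1, the change with MG132 alone was not called, so its difference of responses lay nearly whole in the arrays with both compounds. Without the replicate 3 arrays the difference was 1.82 ± 0.17 (adjusted p = 0.0045), and with slide as a fixed block 2.93 ± 0.41 (adjusted p = 0.0114). Within slide 2 the 4OHT response under MG132 was 4.54 against its 1 MG132 array, the lowest of that group, and without that array it was 3.48 ± 0.27 (adjusted p = 0.000121). With normexp background correction, which adds an offset and so compresses dim genes, all these values kept their calls at lower size: 0.90 for 4OHT, 2.30 for 4OHT under MG132 and 1.40 for the difference.

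Egr3, an Egr1-related activator with roles in muscle spindles and lymphocytes, was not well above background on any untreated or MG132 array by any of its 3 probes. On its brightest probe the log2 level was 0.75, 0.66 and -0.48 with 4OHT, and -0.66, -0.75 and -0.67 with both compounds. All 6 arrays with 4OHT were well above background. The 4OHT group without MG132 was the more scattered, with an SD of 0.68 against 0.053, and its lowest array still exceeded the highest array with both compounds. Where a gene was not measured in a group, the fold is given as at least a value. That value is taken against the lowest signal well above background on each of those arrays. It is no strict lower bound, because a probe can lie above that signal and still miss the background mark. The reference averaged -5.22 over the MG132 arrays, and the dimmer Nab2 probe missed the mark at -5.08 on MG132 replicate 2. The call and adjusted p of such a change rest on values below background in that group. Egr3 passed the filter on dim probes only through the groups with 4OHT, so its calls are no separate support for a rise.

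Egr3 was at least 67.8-fold higher with 4OHT than in untreated cells (adjusted p = 3.74e-07) and at least 23.1-fold higher with both compounds than with MG132 alone (adjusted p = 4.05e-06). Against untreated cells the group with both compounds was at least 33.8-fold higher (adjusted p = 2.81e-07). These values apply to the processed signal only. With normexp background correction, whose offset compresses dim values, the log2 changes of Egr3 were 3.00, 2.13 and 2.22 in the same order. All were still called, and they lie below the values given. Where both groups were measured, Egr3 was 2.01-fold lower with both compounds than with 4OHT alone (SE 0.33 on the log2 scale, adjusted p = 0.0262), a direction opposite to those of Egr1 and Egr2 in the same comparison. That call was lost when slide was a fixed block (-0.40, adjusted p = 0.671), with only the arrays compared (adjusted p = 0.0575), and without 4OHT replicate 1 or 2 or any array with both compounds (adjusted p from 0.0577 to 0.0883). The second probe gave -1.24 ± 0.29 (adjusted p = 0.00576 over all probes) in this comparison and at least 38.0-fold for the rise with 4OHT alone. The third probe passed the background mark on 1 array with 4OHT and 1 with both compounds and was not tested. The difference of the 4OHT responses of Egr3 (-1.26 ± 0.46, adjusted p = 0.146) rests on values below background in both control groups, so that its size is not a measurement. The second probe passed the threshold there (-1.78 ± 0.42, adjusted p = 0.0333), with the same limit.

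**Figure D2:**
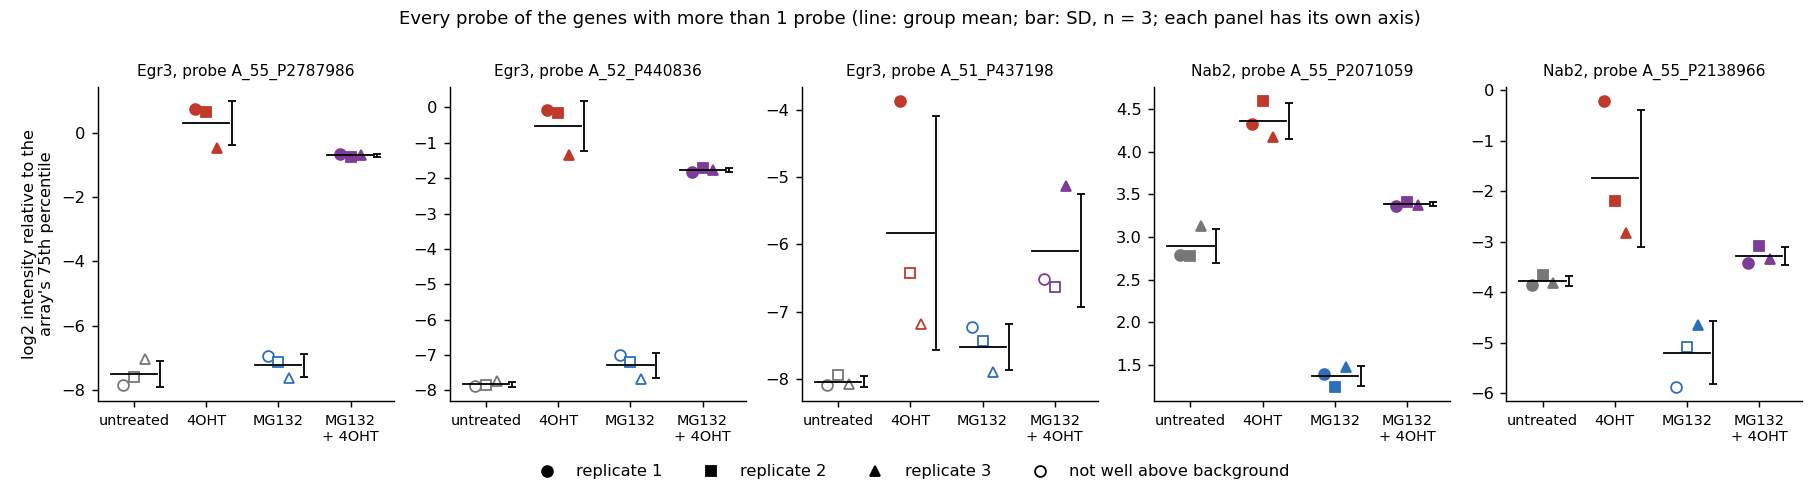
Log2 intensity relative to the array's 75th percentile for every probe of Egr3 and Nab2, the genes with more than 1 probe, on the 12 arrays; lines are group means, bars the SD of 3 arrays, and open symbols were not well above background. The 2 brighter Egr3 probes show the same order of groups, and the dimmer Nab2 probe scatters from -2.82 to -0.22 with 4OHT.

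Egr4 did not follow the other Egr genes. Its log2 level was -2.12, -2.30 and -2.52 in untreated cells and -3.14, -3.32 and -3.16 with 4OHT. With MG132 it was -1.77, -1.96 and -2.25, and with both compounds -2.03, -1.74 and -2.80. The 4OHT arrays lay below all others, and the other 3 groups overlapped each other.

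Egr4 fell by 0.89 on the log2 scale with 4OHT (SE 0.24, 1.86-fold, adjusted p = 0.0193). The fall was not called with normexp background correction (-0.28, adjusted p = 0.145), or without untreated replicate 1 (adjusted p = 0.0729), untreated replicate 2 (0.0562) or 4OHT replicate 2 (0.059). With MG132 alone it changed by 0.32 ± 0.24 (adjusted p = 0.317) and with 4OHT under MG132 by -0.20 ± 0.24 (adjusted p = 0.568), neither called. The group with both compounds exceeded 4OHT alone by 1.01 ± 0.24 (2.02-fold, adjusted p = 0.00586), a call that slide as a fixed block ended (1.40 ± 0.43, adjusted p = 0.0508). The difference of the 4OHT responses was 0.69 ± 0.34 (adjusted p = 0.285). Without the third array with both compounds, its lowest, that difference was 1.00 (adjusted p = 0.0416).

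Nab2, the corepressor that Egr proteins induce and that represses them in turn, was bright in every group on its brighter probe. Its log2 level was 2.78, 2.78 and 3.12 in untreated cells and 4.33, 4.59 and 4.17 with 4OHT. With MG132 it was 1.39, 1.24 and 1.48, and with both compounds 3.36, 3.41 and 3.37. The groups did not overlap in any comparison, where 40.9% to 72% of all genes did not overlap either, by comparison. The order was MG132, untreated, both compounds and 4OHT from low to high. The closest neighbours in that order were untreated cells and both compounds.

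Nab2 rose 2.77-fold with 4OHT (1.47 ± 0.13, adjusted p = 2.76e-05). MG132 alone lowered it 2.88-fold (-1.53 ± 0.13, adjusted p = 1.56e-05), and -1.58 ± 0.17 was found within slide 1 (adjusted p = 0.00103). With MG132 present, 4OHT raised Nab2 4.04-fold (2.01 ± 0.13, adjusted p = 1.4e-05). The value against the 1 MG132 array of slide 2 was 1.91, for which no p-value is given because it rests on that array. The responses with and without MG132 differed by 0.55 ± 0.19, which was not called (adjusted p = 0.121). Unlike Egr1 and Egr2, Nab2 was lower with both compounds than with 4OHT alone (-0.98 ± 0.13, adjusted p = 0.000188). Against untreated cells it was 1.40-fold higher with both compounds (0.49 ± 0.13, adjusted p = 0.0101). That last call was lost with slide as a fixed block (0.33, adjusted p = 0.363), with median centring (0.08, adjusted p = 0.662) and with the mean over both Nab2 probes (adjusted p = 0.181). The second, dimmer Nab2 probe rose by 2.04 ± 0.55 with 4OHT (adjusted p = 0.0189 over all probes) and by 1.91 ± 0.55 with 4OHT under MG132 (adjusted p = 0.029). Its change with MG132 alone was -1.42 ± 0.55 (adjusted p = 0.0612), with 1 of 3 MG132 arrays well above background, and its difference of responses (-0.13 ± 0.78, adjusted p = 0.947) had the opposite sign to the brighter probe's.

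**Figure D3:**
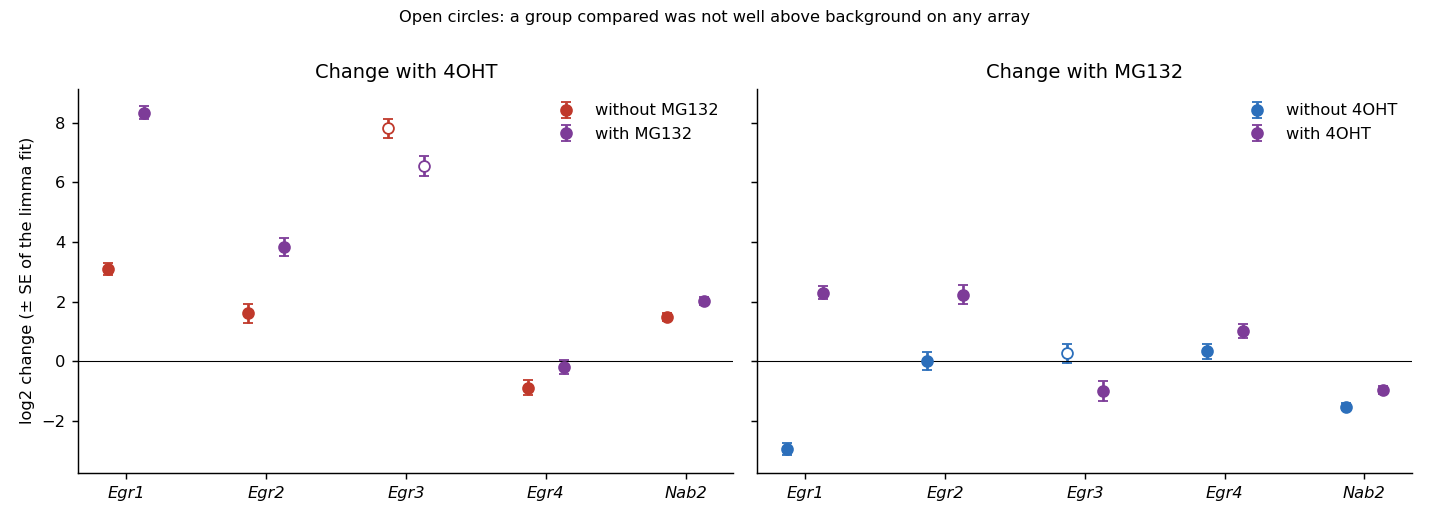
Log2 changes (vertical axis, ± SE of the limma fit, 3 arrays per group) of the 5 measured genes with 4OHT, without and with MG132 (left), and with MG132, without and with 4OHT (right); open circles mark comparisons in which a group was not well above background. Egr1 moves from -2.96 to 2.30 between the MG132 changes, while Nab2 is below 0 in both.

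Side by side, the changes with MG132 differed in direction among the members, though their dependence on 4OHT passed the test for Egr1 and Egr2 and for no other gene of the family on its brightest probe. With MG132 added to 4OHT, Egr1, Egr2 and Egr4 were higher and Egr3 and Nab2 lower, where 50.2% of all genes were called. In this comparison the groups lay on different slides, so slide and treatment coincide. With slide as a fixed block the calls of Egr3 and Egr4 were lost, and those of Egr1, Egr2 and Nab2 held. Without 4OHT, Egr1 and Nab2 fell and the others were not called. The ratio of corepressor to activator transcripts was not formed, since levels of different probes are not on a common scale.

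For each member the 3 genes whose profile lay nearest were found by the root mean square difference of centred log2 levels over the 12 arrays, among 15920 other genes with a symbol and no missing value. For Nab2 they were the AP-1 gene Junb (0.20), Tmsb4x, which encodes an actin-binding thymosin (0.23), and Zfp36, which encodes an mRNA decay factor (0.23). All 3 rose with 4OHT (1.72, 1.60 and 2.01 on the log2 scale) and fell with MG132 (-1.18, -1.08 and -1.26), as Nab2 did. For Egr2 they were Fos, the partner of JUN in AP-1 (0.39), Esm1 (0.42) and Gpr1 (0.42). Fos changed by 2.02 with 4OHT, 0.14 with MG132 and 3.45 with 4OHT under MG132, against 1.61, 0.0038 and 3.83 for Egr2. The genes nearest to Egr3 were the caudal factor Cdx2 (0.74), 1700116B05Rik (1.04) and Col6a5 (1.09), and those nearest to Egr4 were Cep162 (0.19), the cell cycle inhibitor gene Cdkn2c (0.20) and Pde4dip (0.20). For Egr1 the nearest were the gene of the Sprouty feedback inhibitor Spry4 (1.20), Ankrd66 (1.31) and Itgax (1.41). The differences are not scaled by the range of the profile. That range was 8.91 for Egr1, 8.60 for Egr3, 4.76 for Egr2, 3.35 for Nab2 and 1.58 for Egr4. Values below background, as for Itgax and Esm1 in untreated cells, entered the profiles as measured. So did those of Egr3 on all untreated and MG132 arrays. In these 2 groups the mean log2 levels of its nearest genes were also low. They were -6.68 and -6.25 for Cdx2, -8.00 and -7.32 for 1700116B05Rik, and -6.55 and -5.41 for Col6a5. Nearness to Egr3 thus rests in part on low signal without 4OHT. Of the 3 genes nearest to Egr1, Spry4 also fell with MG132 (-2.46), and its 4OHT response under MG132 was 5.36 against 8.35 for Egr1. Between members the nearest pair by this unscaled measure was Egr2 and Nab2 (1.40) and the most distant Egr3 and Egr4 (3.96). Egr2 and Nab2 still moved in opposite directions with both compounds against 4OHT alone (2.23 and -0.98).

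Genes reported as targets of Egr factors in other tissues were taken as fixed lists, and each count is set beside all genes, of which 13.9% were called higher and 14.7% lower with 4OHT, 24.1% and 19% with MG132, and 13.9% and 12.6% with 4OHT under MG132. Of 17 measured growth and vascular targets, 8 rose and 2 fell with 4OHT, with a median change of 0.60 against 0.03 over all genes. Flt1, which encodes a receptor for vascular endothelial growth factor, was at least 22.6-fold higher with 4OHT (adjusted p = 4.39e-05). Ptgs2, which encodes the inducible cyclooxygenase, rose 10.4-fold (3.38 ± 0.20, adjusted p = 1.86e-06), and Cd44, a hyaluronan receptor gene, was at least 1.67-fold higher (adjusted p = 0.00139). The members that fell were Hpse, which encodes heparanase and was not well above background with 4OHT, and the fibronectin gene Fn1 (-0.42 ± 0.12, adjusted p = 0.0291). Under MG132, 8 of 17 rose with 4OHT and none fell (median 0.64 against 0.07), Ptgs2 (2.94 ± 0.20) and the tissue factor gene F3 (2.15 ± 0.20) among them. With MG132 alone 8 rose and 3 fell, but 4 rose and 6 fell with median centring, so no direction is given for this list. The MG132 dependence of the 4OHT response ran both ways within it: F3 responded more by 1.28 ± 0.29 (adjusted p = 0.0266), and Flt1 (-2.75 ± 0.69, adjusted p = 0.0434, with untreated values below background), Tgfb1 (-1.38 ± 0.17, adjusted p = 0.0021) and Pdgfb (-0.69 ± 0.16, adjusted p = 0.0336) responded less.

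Of 11 measured growth arrest and death targets, 9 rose and none fell with MG132 (median 0.98 against 0.07 over all genes), and with median centring 6 rose and 1 fell. Atf3, a stress-induced factor gene, rose by 4.55 ± 0.30 (adjusted p = 3.13e-06), the secreted stress factor gene Gdf15 by 3.27 ± 0.36 (adjusted p = 6.44e-05) and Pmaip1, which encodes the pro-death protein NOXA, by 2.88 ± 0.15 (adjusted p = 9.47e-07). These 3 are also known as general stress or p53 targets. With 4OHT 4 rose and 5 fell. Bcl2l11, which encodes the pro-death protein BIM, rose by 3.97 ± 0.21 (adjusted p = 1.18e-06), and Gadd45b (-1.96 ± 0.18, adjusted p = 3.36e-05) and the cell cycle inhibitor gene Cdkn1a (-1.15 ± 0.14, adjusted p = 0.000151) fell. Under MG132 5 rose and 2 fell with 4OHT, Pmaip1 (2.08 ± 0.15) and Gadd45a (1.60 ± 0.17) among the rises. Bcl2l11 responded less to 4OHT with MG132 than without it (-2.96 ± 0.30, adjusted p = 0.000578), in contrast to Egr1 and Egr2.

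Of 15 measured neural, myelin and hindbrain targets, 3 rose and 6 fell with 4OHT (median -0.42), and 5 rose and 5 fell with normexp background correction. Arc, an activity-regulated synaptic gene and a target of EGR1 and EGR3, rose 8.23-fold with 4OHT (3.04 ± 0.25, adjusted p = 1.65e-05) and 14.3-fold with 4OHT under MG132 (3.83 ± 0.25, adjusted p = 1.4e-05). Nr4a1, an immediate-early nuclear receptor gene, rose with 4OHT (0.78 ± 0.13, adjusted p = 0.00126). Mbp, which encodes myelin basic protein, fell with 4OHT (-1.91 ± 0.24, adjusted p = 0.00027). Under MG132 2 rose and 2 fell with 4OHT, and with MG132 alone 4 rose and 3 fell. Of the 7 neural markers measured, 2 rose and 5 fell with 4OHT, and their part in this list was not tested.

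Of 9 measured lymphoid and pituitary targets, 3 rose and 3 fell with 4OHT, 3 rose and 1 fell with MG132, and 3 rose and 1 fell with 4OHT under MG132. Dusp2, which encodes an ERK phosphatase, rose by 3.78 ± 0.24 with 4OHT (adjusted p = 2.68e-06). Id3, a target of the Egr factors in thymocytes that restrains E proteins, rose 3.42-fold with 4OHT under MG132 (1.77 ± 0.29, adjusted p = 0.002), and this response exceeded that without MG132 by 2.17 ± 0.41 (adjusted p = 0.0128). Dusp2 differed the other way (-2.49 ± 0.33, adjusted p = 0.00266).

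**Figure D4:**
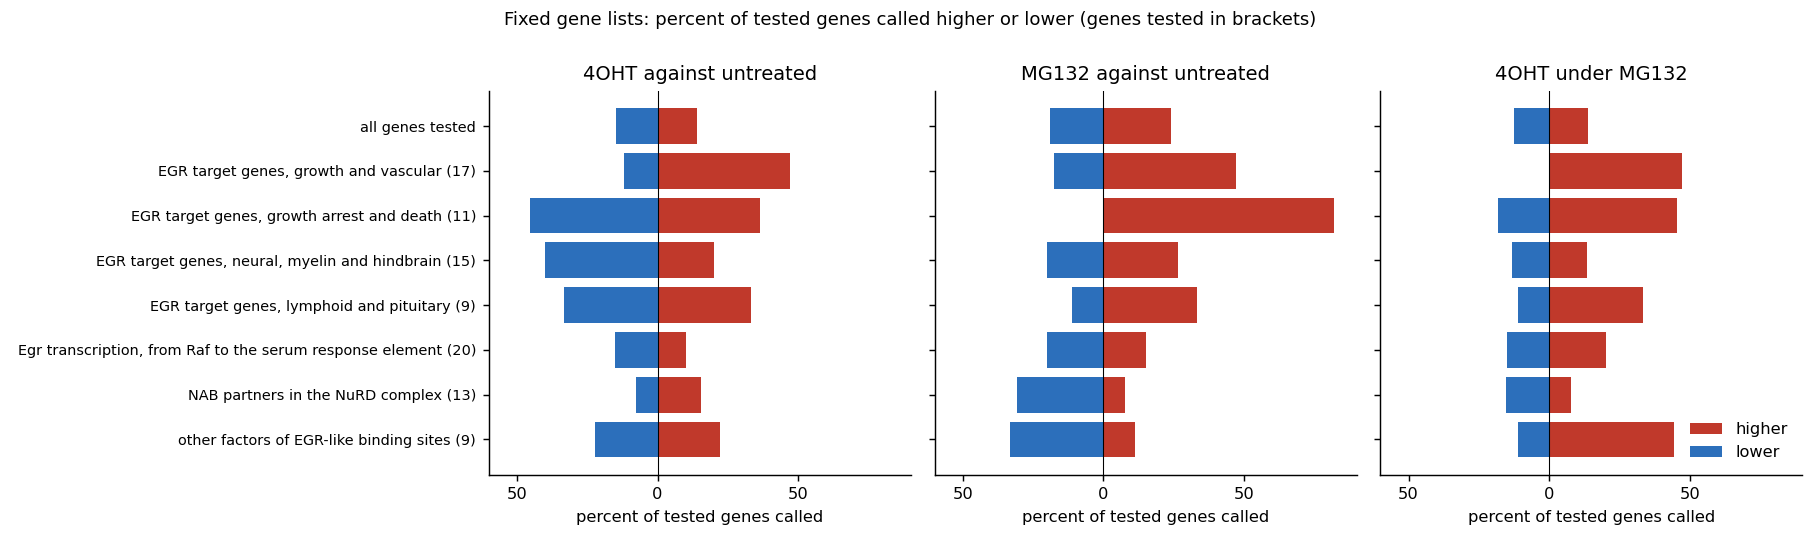
Percent of the measured genes of each fixed list called higher (right of 0) or lower (left of 0) at adjusted p below 0.05 in 3 comparisons, with all genes on the top row and the number measured in brackets. The lists hold 9 to 20 genes, so 1 gene is 5 percent or more; growth and vascular targets hold 8 of 17 higher with 4OHT, and growth arrest and death targets 9 of 11 higher with MG132.

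Of 20 measured components that lead from Raf to the promoters of the Egr genes, 2 rose and 3 fell with 4OHT, 3 rose and 4 fell with MG132, and 4 rose and 3 fell with 4OHT under MG132, with medians of 0.04, 0.05 and 0.02. With 4OHT the kinase genes Braf (1.13 ± 0.17, adjusted p = 0.00065) and Rps6ka5 (0.49 ± 0.10, adjusted p = 0.00333) rose. Rps6ka4, which like Rps6ka5 encodes a mitogen- and stress-activated kinase (-1.08 ± 0.12, adjusted p = 9.55e-05), Creb1 (-0.68 ± 0.23, adjusted p = 0.0475) and Srf (-0.42 ± 0.09, adjusted p = 0.00466) fell. With MG132 Mapk3, which encodes ERK1, fell (-0.96 ± 0.12, adjusted p = 0.000144) and Elk1 rose (0.49 ± 0.09, adjusted p = 0.00171). Median centring gave 0 higher and 9 lower for MG132. Transcript levels do not show the activity of these kinases, which was not measured on the arrays.

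NAB proteins recruit the nucleosome remodelling and deacetylase (NuRD) complex through its CHD subunits. Of its 13 measured genes, 2 rose and 1 fell with 4OHT, 1 rose and 4 fell with MG132, and 1 rose and 2 fell with 4OHT under MG132. The helicase gene Chd3 rose by 0.52 ± 0.14 with 4OHT (adjusted p = 0.0202) and 0.58 ± 0.14 with 4OHT under MG132 (adjusted p = 0.014). Mbd3 (-0.86 ± 0.13, adjusted p = 0.000465) and the deacetylase gene Hdac1 (-0.46 ± 0.08, adjusted p = 0.00164) fell with MG132, where median centring called 10 of 13 lower. Among 9 other factors that bind GC-rich sites like those of the Egr proteins, 2 rose and 2 fell with 4OHT. Wt1, which encodes the Wilms tumour factor, whose zinc fingers resemble those of EGR1, rose 16.1-fold with 4OHT (4.01 ± 0.36, adjusted p = 2.63e-05), 3.61-fold with MG132 (1.85 ± 0.36, adjusted p = 0.00214) and 4.81-fold with 4OHT under MG132 (2.27 ± 0.36, adjusted p = 0.00161). With MG132 1 of the 9 rose and 3 fell, and with 4OHT under MG132 4 rose and 1 fell.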

How the data were processed

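Per the labels, total RNA was amplified and marked with Cy3 for 1-colour arrays. For each of them the authors deposited the scanner output, in which Agilent Feature Extraction 11.0.1.1 gave an intensity and background marks for every spot. Per the file headers, this intensity had background subtracted within the array, with no scaling across arrays. A table of the whole series, also from the authors, held that same intensity (largest difference 0, column medians 18.0 to 27.6), uncentred and in scanner units. Each array held 62976 spots. The 3671 control spots and outlier spots were left out, and no spot was saturated.

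Spots of a probe were averaged. Unversioned accessions were matched to RefSeq names (GRCm38.p6), and 32994 of 56605 probes (58.3%) received a symbol. Coordinates came only from the promoter table, because the array's design rests on an earlier assembly. Values were log2 intensity minus each array's 75th percentile (309 to 485 intensity units). A probe entered if every array of some group held it well above background (34327 probes), and the brightest probe stood for its gene, which gave 26836 genes.

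In R 4.3.3, limma 3.58.1 fitted a mean for each group over 12 arrays (8 residual and 2.08 prior degrees of freedom), 6 contrasts and Benjamini-Hochberg adjustment over all genes. All SEs therefore pool 1 spread per gene over the groups. Over all genes the 4OHT arrays scattered most around their group mean, with an SD of 0.51. It was 0.27 for untreated arrays, 0.33 for MG132 and 0.26 for both compounds. The pooled SE can thus be too small for changes that involve the 4OHT group, and too large for others. The fit was run on simulated data with independent values, the same spread in all groups and no effect of slide or replicate. That simulation therefore cannot show how the p-values fare where the arrays depart from this. An exact test of 3 against 3 arrays cannot go below p = 0.1, so none was run. The spread behind every p-value is that between these arrays. Named were all members, up to 3 called members of each list per direction with groups that did not overlap, and the 3 nearest profiles. For the difference of responses, groups have no overlap to check. The members and lists were chosen with earlier results of these data known, so no list count is independent support.

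A total of 30 alternatives was tried: normexp (offset 50), quantile normalization, median centring, both probe filters, the mean over probes, weighted arrays, a robust variance trend, only the arrays compared, slide and replicate blocks, arrays within a slide, the series-wide values, a 2-fold minimum, leaving out each array, and replicates 1 and 2 only. The last, and the alternatives for the lists, were added after the values were seen. Normexp used median signals, because the files hold no mean signal. Files were read with the R packages jsonlite 2.0.0 and data.table (version 1.17.8), and plots were drawn with Python 3.11.15, matplotlib 3.10.9, numpy 2.4.6 and pandas 2.3.3.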

Additional observations from a re-analysis of the deposited data

Results flagged for a closer look

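The 4OHT responses of 2 members differed between cells with and without MG132 by the test of the difference itself. For Egr1 the response was larger with MG132 by 5.25 on the log2 scale (adjusted p = 3.8e-05 in limma), and for Egr2 by 2.22 (adjusted p = 0.0163). The response without MG132 was taken against the 0 h arrays, so time enters these differences and cannot be told apart from the compounds. All 3 arrays with both compounds lay above all 3 MG132 arrays in each gene, but groups did not overlap in 50.2% of all genes in that comparison. That separation does not bear on the difference of responses. Over the 12 fits that left out 1 array, the Egr1 difference ran from 5.02 to 5.40 and the Egr2 difference from 1.87 to 2.44, with adjusted p of at most 0.000381 and 0.0485.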

How the results depend on the processing

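All calls of Egr1, and those of Egr2, held in every alternative tried. Reversals were limited to changes that were not called. With MG132 against untreated cells Egr2 was -0.33 with quantile normalization and -0.33 with median centring, Egr3 -0.018 and -0.080, and Egr4 -0.015 with median centring. Leaving out 1 array took this Egr2 change from -0.22 to 0.36, the Egr4 change with both compounds against untreated cells from -0.10 to 0.43, and the Egr4 response to 4OHT under MG132 from -0.43 to 0.10. Egr4 with both compounds against untreated cells was -0.14 with quantile normalization and -0.28 with median centring. Its response to 4OHT under MG132 was 0.057 with slide as a fixed block and within slide 2. The members called with both compounds against 4OHT alone went from 5 to 3 with slide as a fixed block and with slide and replicate blocks together. With replicates 1 and 2 only, 4 members rather than 2 were called for the difference of responses. Probes above background on all 12 arrays left Egr3 out.

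Same-numbered arrays of different groups correlated above 0.1 in 11 of 18 pairs (-0.06 to 0.41, median 0.14). Arrays of different numbers did so in 8 of 36 pairs (median -0.14). Only 4 of 12 arrays lay nearest to their own number, and the main fit did not pair arrays by number. All 6 pairs numbered 3 lay above 0.1 (0.12 to 0.41), and 5 of the 12 pairs numbered 1 or 2 did. The arrays numbered 3 thus shared deviations that the main fit leaves in its spread. A replicate block called the same number of members in each comparison (5, 2, 4, 5, 4 and 2), with the Egr1 difference of responses at 5.25 (adjusted p = 0.000182).

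Calls lost beyond those named with the results were few. A 2-fold minimum ended the calls of Egr4 with 4OHT, of Nab2 with both compounds against 4OHT alone and of Nab2 with both against untreated cells. Slide as a random block ended that of Egr3 with both against 4OHT alone (adjusted p = 0.0625). The Egr3 difference of responses passed the threshold with array weights (-1.62) and without the third 4OHT array (-1.65). The cause of these moves was not tested.

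Over all genes, the calls for 4OHT numbered 7667, and 14466 with no filter on dim probes, 5072 with only the arrays compared and 2979 with a 2-fold minimum. For 4OHT under MG132 they numbered 7109, and 14121 with array weights, 2987 with slide as a fixed block, 2312 with slide and replicate blocks, 2090 within slide 2, 1944 with the 2-fold minimum and 4620 to 4722 without MG132 replicate 2 or replicate 1 or 2 with both compounds. For both compounds against 4OHT alone they went from 13480 to 5336 and 4833 with these block fits, and against untreated cells from 14932 to 7022 and 6055. The 2-fold minimum left 5402, 6319 and, for MG132 (11567), 4283. The 1759 calls for the difference of responses became 802 and 804 with the block fits, 1041 with the 2-fold minimum, 4687 with array weights, 2910 with replicates 1 and 2 only, and 1037 to 1127 without untreated replicate 1 or 2, MG132 replicate 1 or 2, or replicate 1 or 2 with both compounds. Median centring moved the median change of all genes from 0.07 to -0.27 for MG132 and the share of calls that were higher from 56% to 27.6%. For 4OHT that share was 48.7%, and 30.9% with median centring, 38% with quantile normalization, 68.5% with normexp and 74% with no filter. Median centring gave 42% for 4OHT under MG132 (52.4% before), 38.7% against 4OHT alone (58.4%), 30.8% for both against untreated cells (59.6%; 48.4% with quantile normalization) and 58.7% for the difference (44.9%; 25.7% with no filter). Array weights and blocks aside, 12 arrays limit the precision, and dim genes (Egr2, Egr3, Egr4) carry sizes that depend on background correction.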
